A study of Homo sapiens with 24 samples.

Results

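The results below concern 6 array probes for 5 genes of MHC class I antigen presentation, out of the 47231 probes measured. They were PSMB9 (ILMN_2376108), PSMB8 (ILMN_1767006), TAP1 (ILMN_1751079), HLA-B (ILMN_1778401) and a pair of probes for B2M (ILMN_2148459 and ILMN_1725427). The members were chosen by gene name, with earlier results of these data known. The names came from the annotation of the Illumina HT-12 array. Signals were measured in SW-13 cells, an adrenal carcinoma line that lacks BRG1, the ATPase of the SWI/SNF chromatin remodelling complex. The question was how knockdown of SUZ12 changed the level of interferon-responsive genes and their response to IFNγ in cells without BRG1.

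The 24 arrays formed 8 groups of 3 biological replicates. All cells were transfected with siRNA, either a control (siCtrl) or siSUZ12 at 50 nM, and 4 of the 8 groups received 75 nM siBRM as well. SUZ12 is a core subunit of Polycomb repressive complex PRC2, and BRM is the SWI/SNF ATPase related to BRG1. Each of the 4 siRNA combinations was measured without treatment and after 6 hrs of IFNγ. The siBRM groups thus received more siRNA in all than the others, so the effects of siBRM and of the total siRNA dose cannot be told apart. The deposited table does not pair probes with symbols, so the levels of SUZ12 and BRM, markers of the cell line, and other genes of the pathway were not analysed here.

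MHC class I molecules show short peptides from inside the cell to CD8 T cells. The proteasome cuts the peptides, the TAP transporter carries them into the endoplasmic reticulum, and there they are loaded onto a heavy chain paired with β2-microglobulin. IFNγ is known to raise many genes of this pathway, among them the immunoproteasome subunits that replace the constitutive ones.

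The promoters of these genes are shown with the places, where there are any, of letters that interferon-activated factors of the IRF family are known to bind. RefSeq windows on GRCh38.p14, from 250 bases before to 50 after each annotated start, were found for all 5 genes, 7 windows in all. They were searched on both strands for GAAA, any 2 bases and GAAA again, the core of an interferon-stimulated response element, which 3.57% of 35116 such windows held. The shorter GAANNGAAA, whose matches can overlap those of the core, was in 7.66%. The sequences below run 5′ to 3′ on the gene's strand, and capitals mark matches to either pattern.
PSMB9, chr6:32854132-32854191, plus strand, no match: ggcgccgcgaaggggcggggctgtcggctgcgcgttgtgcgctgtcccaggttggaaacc
TAP1, chr6:32853798-32853863, minus strand: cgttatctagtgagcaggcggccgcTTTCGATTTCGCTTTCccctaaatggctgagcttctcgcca
B2M, chr15:44711348-44711413, plus strand: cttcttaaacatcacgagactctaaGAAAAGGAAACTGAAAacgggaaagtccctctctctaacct
HLA-B, chr6:31357301-31357359, minus strand: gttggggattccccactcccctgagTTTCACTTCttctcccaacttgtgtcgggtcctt
PSMB8, the downstream of 2 starts, chr6:32844033-32844076, minus strand: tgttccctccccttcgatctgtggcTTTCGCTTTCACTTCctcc

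TAP1 and B2M each held 2 overlapping core matches. Those of TAP1 lay 134 to 119 bases before the upstream of its 2 annotated starts, and those of B2M 144 to 129 bases before its start. HLA-B held the shorter pattern 155 to 147 bases before its start. In PSMB8 the run spanned the downstream start itself. The other windows of TAP1 and PSMB8 held neither pattern. PSMB9 and TAP1 are transcribed away from each other, and the PSMB9 start lies 488 bases from the upstream TAP1 start. Neither pattern was found in the PSMB9 window, and the TAP1 matches ended 354 and 360 bases from the PSMB9 start. A match describes letters in a window and is not a measured site.

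Mean intensities of the arrays before scaling ranged from 532 to 635, and each array detected 15223 to 16799 probes at a detection p-value below 0.01. Replicates correlated at r of 0.994 to 0.995, and for all 24 arrays the nearest array was from the same group. Values below are normalized signals, the deposited intensities scaled so that all arrays have the same mean, and log2 changes are differences between group means of log2 signal from limma. A probe was called at an adjusted p below 0.05, Benjamini-Hochberg over all 47231 probes. Shares given beside counts of members are of all 47231 probes, of which 26369 were detected in no array. Shares among detected probes were not counted. The precision is limited by 3 arrays per group, and permuting 3 against 3 arrays cannot give a p below 0.1. Where groups are said not to overlap, the share of all probes with groups apart was not counted. Such statements describe the arrays only. Arrays measure RNA pooled from many cells, so fewer responding cells and less RNA per cell cannot be told apart. The signals of different probes do not compare the amounts of their genes.

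TAP1, HLA-B and both B2M probes were detected in all 24 arrays. PSMB9 was detected in all arrays but the 3 of untreated siCtrl + siBRM cells. The PSMB8 probe was detected in 0 of 24 arrays. Its normalized signals lay between 76.8 and 104, around the median of 95.4 for the 26369 probes detected in no array. PSMB8 encodes an immunoproteasome subunit like PSMB9, and at this signal the probe could show neither the presence of its transcript nor a change in it. It was not called in any of the comparisons below, and its log2 changes lay between -0.12 and 0.13.

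**Figure D1:**
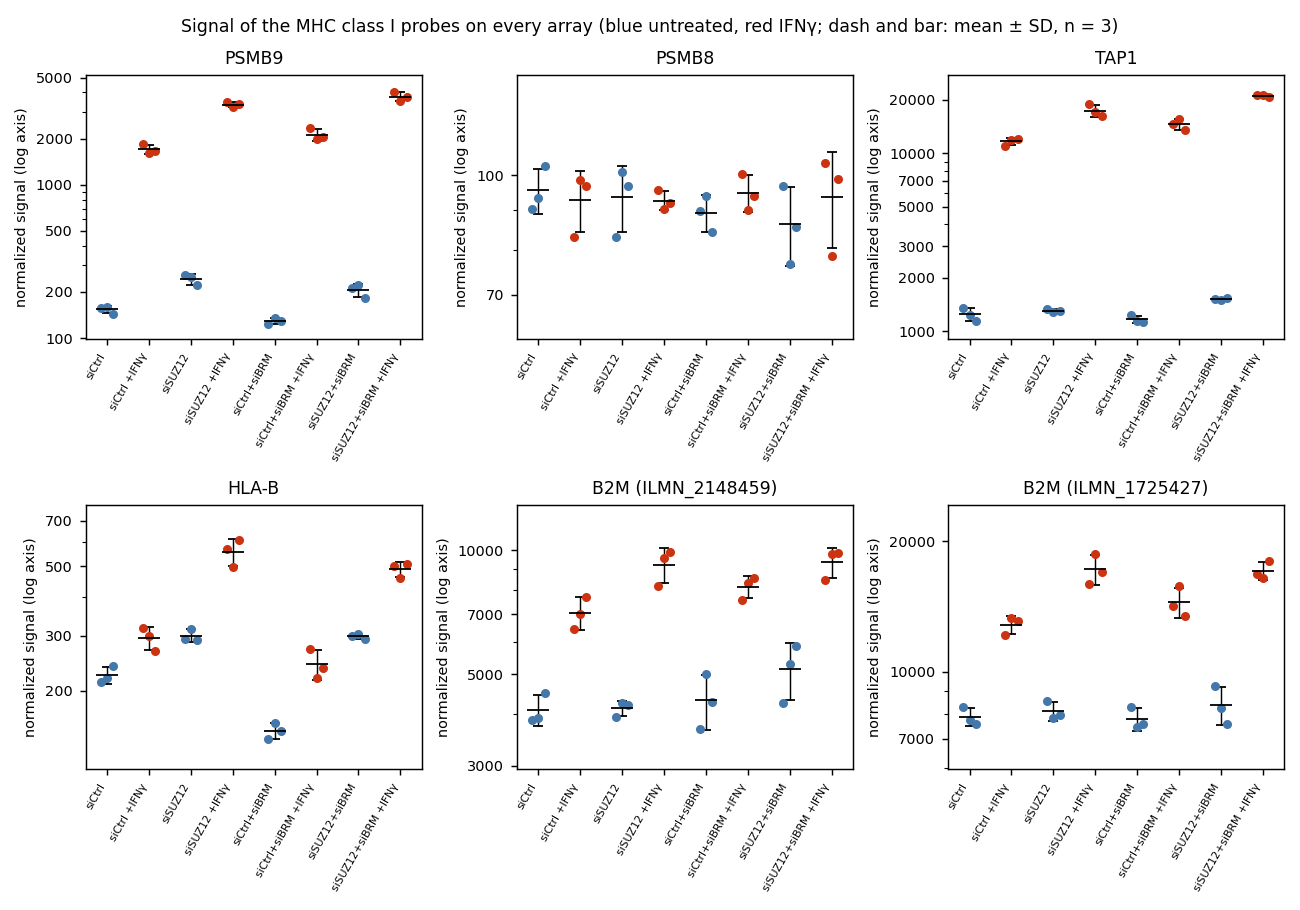
Normalized signal of each of the 6 probes (log axis) in the 24 arrays, by group; points are arrays (blue untreated, red with IFNγ), dashes are group means and bars are ± SD (n = 3). The panels of 5 probes show higher signals in every IFNγ group than in its untreated group, and the PSMB8 panel stays between 76.8 and 104 in all groups.

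In siCtrl cells IFNγ raised 5 of the 6 probes, against 0.593% of all probes, and PSMB8 was the exception. PSMB9 and TAP1 rose 11.1-fold and 9.42-fold, ranking 2 and 3 among all 47231 probes by size of rise, while B2M and HLA-B rose less than 2-fold. At a rise of at least 2-fold the count was 2 of 6, against 0.123% of all probes. The median log2 change was 0.74 over the 6 probes and -0.0064 over all probes.

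PSMB9 encodes an inducible catalytic subunit of the immunoproteasome. Its signals were 157, 159 and 144 in untreated siCtrl arrays and 1834, 1616 and 1648 with IFNγ. All treated arrays were far above all untreated ones, and the log2 change was 3.47 ± 0.09 (SE, n = 3 arrays per group; limma, adjusted p = 1.61e-25). The untreated signal was close to that of undetected probes, and with background correction (neqc) the log2 change was 4.37.

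TAP1 encodes one of the paired subunits of the peptide transporter. Its signals were 1356, 1228 and 1148 in untreated siCtrl arrays and 11026, 11976 and 12082 with IFNγ. The groups were again far apart, with a log2 change of 3.23 ± 0.08 (SE, n = 3; limma, adjusted p = 8e-26).

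B2M encodes β2-microglobulin, the light chain shared by all classical class I molecules. The probe ILMN_2148459 gave 3887, 3913 and 4511 without IFNγ and 6442, 6999 and 7715 with it. The probe ILMN_1725427 gave 8283, 7713 and 7572 without and 12139, 13292 and 13095 with IFNγ. In both probes the groups did not overlap, and the log2 changes were 0.78 ± 0.11 and 0.71 ± 0.09 (SE, n = 3; limma, adjusted p = 1.04e-05 and 5.87e-07).

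HLA-B encodes a polymorphic heavy chain. Its probe could also bind transcripts of near-identical class I genes, so its values may not be those of HLA-B alone. It gave 214, 219 and 240.2 in untreated siCtrl arrays and 317, 300.2 and 268 with IFNγ. The treated arrays were all higher, by a narrower margin than for the other 4 probes that rose, and the log2 change was 0.39 ± 0.09 (SE, n = 3; limma, adjusted p = 0.0166). The HLA-B call was lost when either untreated replicate 1 or 2, or either IFNγ replicate 1 or 2, of siCtrl cells was left out, with log2 changes of 0.36, 0.38, 0.34 and 0.38. In all, the call was lost in 6 of 16 alternatives. Leaving out all arrays of a replicate number took the log2 change to between 0.31 and 0.51.

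In siSUZ12 cells IFNγ also raised 5 of 6 probes, against 1.2% of all probes, and 4 of them at least 2-fold, against 0.275%. PSMB9 rose from 256, 251 and 220.3 to 3459, 3213 and 3341, and TAP1 from 1328, 1286 and 1302 to 18896, 17028 and 16316. Their log2 changes of 3.78 ± 0.09 and 3.74 ± 0.08 (SE, n = 3; limma, adjusted p = 6e-27 and 6.64e-28) gave them ranks 4 and 5 among all probes. The median log2 change was 1.12 over the 6 probes and -0.048 over all probes.

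The light and heavy chain probes rose in siSUZ12 cells as well. B2M went from 3939, 4259 and 4224 to 8199.8, 9589.9 and 9908 in ILMN_2148459, and from 8549, 7807 and 7950.5 to 15958, 18674 and 17029.6 in ILMN_1725427. Both B2M probes passed 2-fold in siSUZ12 cells, at log2 changes of 1.15 ± 0.11 and 1.09 ± 0.09 (SE, n = 3; limma, adjusted p = 9.58e-10 and 9.7e-12). HLA-B went from 293, 316 and 290.3 to 571, 497 and 606, a log2 change of 0.89 ± 0.09 (SE, n = 3; limma, adjusted p = 3.81e-09). None of these pairs of groups overlapped.

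**Figure D2:**
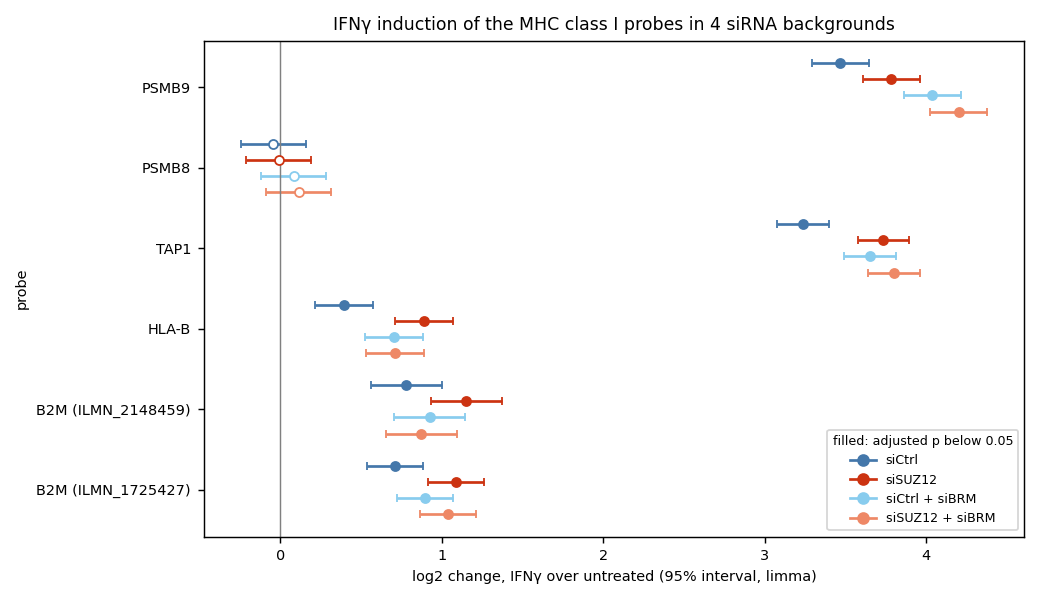
Log2 change by IFNγ of each probe in the 4 siRNA combinations, with 95% intervals from limma; a filled point has an adjusted p below 0.05 and an open point does not. PSMB9 and TAP1 sit between 3.23 and 4.20, the B2M probes between 0.71 and 1.15, HLA-B between 0.39 and 0.89, and PSMB8 between -0.043 and 0.11.

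By a test of the difference, the induction itself was larger in siSUZ12 than in siCtrl cells for 1 of 6 probes, TAP1. That test called 0.199% of all probes, counting both directions. TAP1's log2 change by IFNγ was larger by 0.50 ± 0.11 (SE, 3 arrays in each of 4 groups; limma, adjusted p = 0.0412). HLA-B's was larger by 0.50 ± 0.13 (adjusted p = 0.134), and it passed in 4 of 22 alternatives, namely quantile normalization, probes detected in at least 3 arrays, trend and robust settings, and without siSUZ12 IFNγ replicate 2 (0.58). Those of the B2M probes were larger by 0.37 ± 0.15 and 0.38 ± 0.12 (adjusted p = 0.834 and 0.513). PSMB9's was larger by 0.32 ± 0.12 (adjusted p = 0.793), and with background correction by 0.010. The 6 differences had a median of 0.37, with a median of -0.040 over all probes. The TAP1 call was not stable. It was lost in 15 of 22 alternatives, which included leaving out any single siSUZ12 untreated or siCtrl IFNγ array, siCtrl untreated replicate 1 or 2, or siSUZ12 IFNγ replicate 1 or 2, and over all single or numbered replicates left out the difference lay between 0.35 and 0.62.

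**Figure D3:**
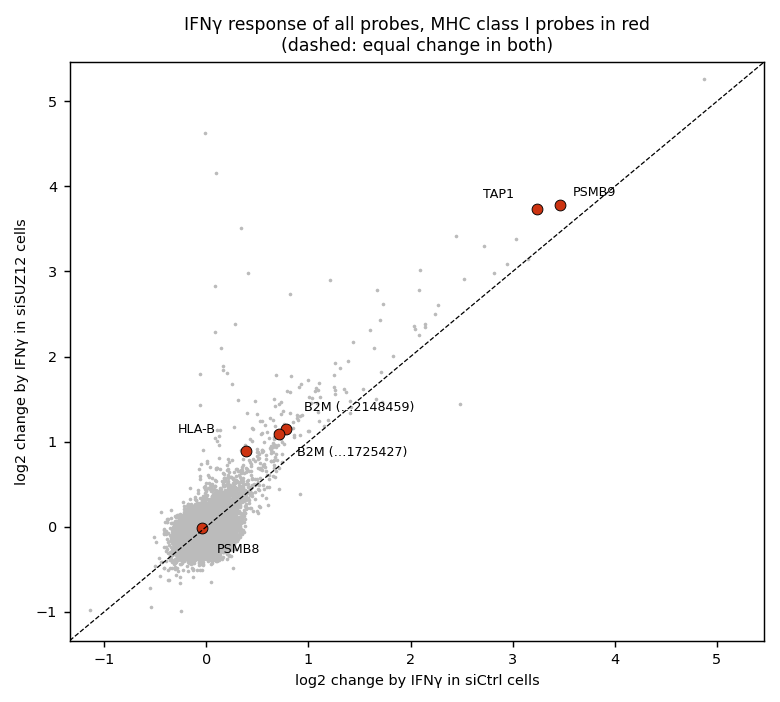
Log2 change by IFNγ in siCtrl cells (x axis) against that in siSUZ12 cells (y axis) for all 47231 probes, in grey, with the 6 MHC class I probes in red; the dashed line marks equal change. The axes share no arrays. TAP1 (3.23 and 3.74) and PSMB9 (3.47 and 3.78) lie at the upper right, and the 5 probes that rose lie above the line.

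Without IFNγ, siSUZ12 raised 2 of the 6 probes, PSMB9 and HLA-B, against 8.16% of all probes, and neither rose 2-fold. PSMB9 was higher in all 3 siSUZ12 arrays (256, 251 and 220.3) than in all 3 siCtrl arrays (157, 159 and 144), a log2 difference of 0.66 ± 0.09 (SE, n = 3; limma, adjusted p = 4.3e-07). With background correction it was 1.04. HLA-B was higher likewise (293, 316 and 290.3 against 214, 219 and 240.2), by 0.42 ± 0.09 (SE, n = 3; limma, adjusted p = 0.000576).

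TAP1 and B2M did not pass the test in these untreated cells. TAP1 differed by 0.072, with a 95% interval of -0.088 to 0.23, and its siSUZ12 and siCtrl arrays overlapped. The B2M probes differed by 0.015 (-0.20 to 0.24) and 0.044 (-0.13 to 0.22), with overlapping arrays. For PSMB9, whose start lies 488 bases from the upstream TAP1 start, the interval was 0.48 to 0.83. The contrast between the PSMB9 and TAP1 probes was not tested. The median log2 difference was 0.058 over the 6 probes and 0.025 over all probes.

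With IFNγ, siSUZ12 cells gave higher signals than siCtrl cells in 5 of 6 probes, against 7.28% of all probes raised. None reached 2-fold with the main processing. PSMB9 was higher by 0.98 ± 0.09, or 1.97-fold, and HLA-B by 0.92 ± 0.09, or 1.89-fold (SE, n = 3; limma, adjusted p = 9.62e-11 and 5.8e-10). TAP1 was higher by 0.57 ± 0.08, or 1.49-fold (adjusted p = 8.32e-07). In each of these 3 probes every siSUZ12 array with IFNγ exceeded every siCtrl array with IFNγ. Other processing settings took the log2 differences of PSMB9 and HLA-B up to 1.05 and 1.12, past 2-fold. Leaving out replicates took them up to 1.03 and 1.01.

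The B2M probes were higher in IFNγ-treated siSUZ12 cells by 0.39 ± 0.11 and 0.42 ± 0.09 (SE, n = 3; limma, adjusted p = 0.01 and 0.000328), with no overlap between groups. For ILMN_2148459 the call was lost without siCtrl IFNγ replicate 1, siSUZ12 IFNγ replicate 2 or siSUZ12 IFNγ replicate 3, at differences of 0.32, 0.36 and 0.33. The median log2 difference was 0.50 over the 6 probes and -0.020 over all probes. The untreated and the IFNγ-treated comparison share no arrays with each other.

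**Figure D4:**
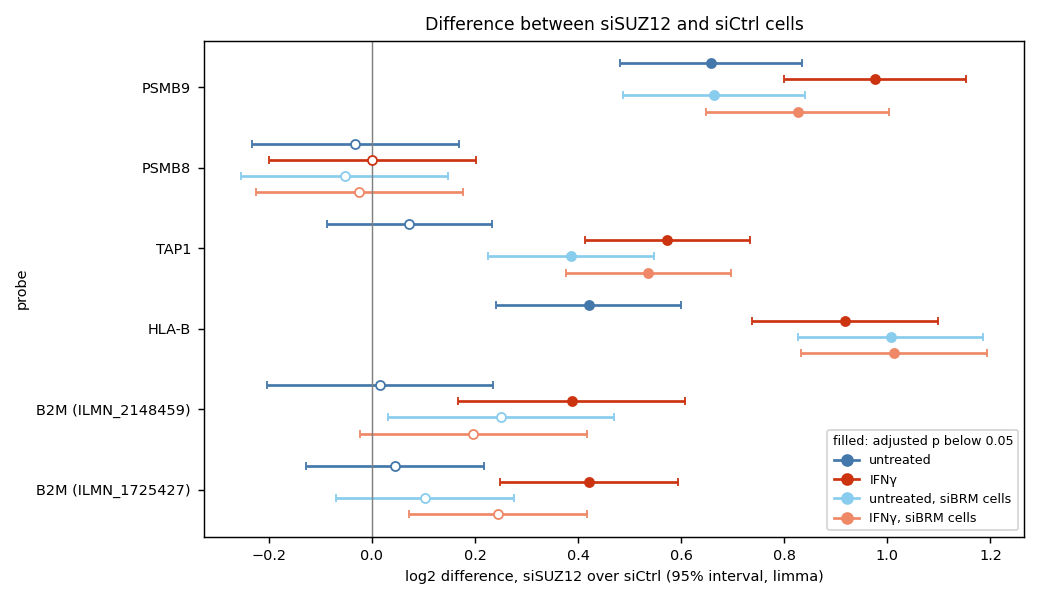
Log2 difference between siSUZ12 and siCtrl cells for each probe, untreated or with IFNγ and without or with siBRM, with 95% intervals from limma; filled points have an adjusted p below 0.05. PSMB9 (0.66 to 0.98) and HLA-B (0.42 to 1.01) are called in all 4 settings, and TAP1 in 3 of them.

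In cells that also received siBRM, the effect of siSUZ12 was measured on arrays separate from those above. Untreated, 3 of 6 probes were raised, against 5.04% of all probes, and 1 of them, HLA-B, at least 2-fold, against 0.241%. PSMB9 gave 124, 135 and 129 in siCtrl + siBRM arrays and 211, 221 and 183 in siSUZ12 + siBRM arrays. HLA-B gave 140.3, 158 and 149 against 300.3, 304 and 293, and TAP1 gave 1226, 1135 and 1132 against 1523, 1497 and 1542. In all 3 probes the siSUZ12 + siBRM arrays were the higher ones without overlap, by 0.66 ± 0.09, 1.01 ± 0.09 and 0.39 ± 0.08 on the log2 scale (SE, n = 3; limma, adjusted p = 1.04e-06, 1.99e-10 and 0.000846). With background correction the differences of PSMB9 and HLA-B were 1.17 and 1.55.

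The B2M probes gave overlapping arrays in this comparison. ILMN_2148459 gave 3685, 5004 and 4286 against 4272, 5310.4 and 5865, a log2 difference of 0.25 (adjusted p = 0.194, limma), and passed the test at 0.38 when siSUZ12 + siBRM untreated replicate 1 was left out. ILMN_1725427 gave 8296, 7445 and 7555 against 9245, 8262 and 7562, a difference of 0.10 (adjusted p = 0.628, limma). The median log2 difference was 0.32 over the 6 probes and 0.039 over all probes.

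With IFNγ and siBRM, siSUZ12 again raised 3 of 6 probes, against 4.72% of all probes, and HLA-B at least 2-fold, against 0.292%. PSMB9 gave 2336, 2001 and 2038 in siCtrl + siBRM arrays and 4027, 3506 and 3759 in siSUZ12 + siBRM arrays. TAP1 gave 14731, 15592 and 13570.5 against 21345, 21379 and 20813, and HLA-B gave 272, 220.1 and 237 against 502, 458 and 507. The groups were apart in all 3 probes, by 0.83 ± 0.09, 0.54 ± 0.08 and 1.01 ± 0.09 (SE, n = 3; limma, adjusted p = 1.08e-08, 6.84e-06 and 1.39e-10). The median log2 difference was 0.39 over the 6 probes and 0.015 over all probes.

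For B2M, ILMN_2148459 gave 7575, 8346 and 8565 against 8463, 9771 and 9856, and ILMN_1725427 gave 14174, 15733 and 13450.0 against 16849.7, 16469 and 17994. The first pair of groups overlapped and the second did not. The differences were 0.20 ± 0.11 and 0.25 ± 0.09 (SE, n = 3; limma, adjusted p = 0.383 and 0.0748). The second probe passed the test with quantile normalization, among probes detected in at least 3 arrays, with trend and robust settings, and without siCtrl + siBRM IFNγ replicate 2.

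The response to IFNγ within the siBRM groups covered the same 5 probes. In siCtrl + siBRM cells 5 of 6 were raised, against 0.987% of all probes, and 2 at least 2-fold, against 0.159%. In siSUZ12 + siBRM cells 5 of 6 were raised, against 1.44%, and 3 at least 2-fold, against 0.296%. The signals before and after IFNγ, given above, were apart for every one of these probes in both backgrounds. The share of all probes apart in this way was not counted.

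PSMB9 rose by 4.04 ± 0.09 in siCtrl + siBRM cells and by 4.20 ± 0.09 in siSUZ12 + siBRM cells, or 16.4-fold and 18.4-fold (SE, n = 3; limma, adjusted p = 1.17e-27 and 4.2e-28). Since the untreated siCtrl + siBRM arrays did not detect PSMB9, the first of these folds depends on the background, and with background correction the log2 changes of PSMB9 were 5.27 and 4.97. TAP1 rose by 3.65 ± 0.08 and 3.80 ± 0.08 (adjusted p = 1.17e-27 and 4.2e-28). HLA-B rose by 0.70 ± 0.09 and 0.71 ± 0.09 (adjusted p = 1.16e-06 and 5.65e-07), the first being 1.19 with background correction. The B2M probes rose by 0.93 and 0.89 in siCtrl + siBRM cells and by 0.87 and 1.04 in siSUZ12 + siBRM cells, with adjusted p of 4.92e-07 or less.

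With siBRM present, the difference in induction between siSUZ12 and siCtrl cells passed the test for 0 of 6 probes (limma), against 0.116% of all probes, and none of the 6 had an unadjusted p below 0.05. For TAP1 it was 0.15 ± 0.11, with a 95% interval of -0.077 to 0.38, and for HLA-B 0.0072 (-0.25 to 0.26). PSMB9 gave 0.16 (-0.088 to 0.41), and the B2M probes gave -0.054 (-0.37 to 0.26) and 0.14 (-0.10 to 0.39). With background correction the PSMB9 and HLA-B differences turned to -0.29 and -0.27, neither called. Whether these differences themselves depended on siBRM was not tested.

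The siBRM comparisons moved few of the probes. In untreated siCtrl cells HLA-B was the 1 probe of 6 that was lowered, against 1.87% of all probes. Its siCtrl + siBRM arrays (140.3, 158 and 149) all lay below the siCtrl arrays (214, 219 and 240.2), and the level fell by 0.59 ± 0.09 on the log2 scale (SE, n = 3; limma, adjusted p = 2.76e-05). With background correction HLA-B fell by 1.03. PSMB9 was lower by a log2 difference of -0.25 (adjusted p = 0.133, limma), also without overlap, and passed the test with background correction at -0.54, among probes detected in at least 3 arrays, and with trend and robust settings.

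In untreated siSUZ12 cells siBRM changed 0 of 6 probes (limma), against 2.94% of all probes, and 3 of the 6 had an unadjusted p below 0.05. PSMB9 differed by -0.24 (adjusted p = 0.163), TAP1 by 0.22 (adjusted p = 0.163) and B2M ILMN_2148459 by 0.30 (adjusted p = 0.164). PSMB9 passed the test with background correction (-0.41) and among probes detected in at least 3 arrays, and TAP1 passed among those probes and with trend and robust settings. B2M ILMN_2148459 passed with a replicate block and, at 0.43, without siSUZ12 + siBRM untreated replicate 1. HLA-B was at 300.3, 304 and 293 with siBRM and 293, 316 and 290.3 without, and these arrays overlapped. Its log2 difference lay within -0.18 to 0.18 (95% interval).

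HLA-B thus differed with siBRM in untreated siCtrl cells and gave overlapping arrays in untreated siSUZ12 cells, and the difference between these was tested by a contrast chosen after the data were seen. The effect of siSUZ12 on HLA-B was larger with siBRM than without by 0.59 ± 0.13 (SE, 3 arrays in each of 4 groups; limma, adjusted p = 0.00857), or 1.01 with background correction. The call was lost when all arrays of replicate number 1, 2 or 3 were left out. HLA-B was the 1 probe of 6 called, against 1.25% of all probes. With IFNγ the same contrast called 0 of 6 (limma), against 1.3%, none at an unadjusted p below 0.05, and for HLA-B it was 0.095 (95% interval -0.16 to 0.35).

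With IFNγ, siBRM raised 2 of 6 probes in siCtrl cells, against 1.41% of all probes. PSMB9 was higher by 0.32 ± 0.09 and TAP1 by 0.32 ± 0.08 (SE, n = 3; limma, adjusted p = 0.0306 and 0.0135), and in both probes the siBRM arrays were all higher. In siSUZ12 cells 1 of 6 was raised, against 1.68%, which was TAP1 at 0.29 ± 0.08 (SE, n = 3; limma, adjusted p = 0.0333). The 3 rises were 1.25-fold or less.

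These small rises depended on single arrays. In siCtrl cells PSMB9 lost its call without siCtrl + siBRM IFNγ replicate 1 (0.25), siCtrl IFNγ replicate 2 (0.29) or siCtrl IFNγ replicate 3 (0.30). TAP1 lost it there without siCtrl IFNγ replicate 1 (0.28) or siCtrl + siBRM IFNγ replicate 1 or 2 (0.32 and 0.27). In siSUZ12 cells TAP1 lost its call without any one of the siSUZ12 + siBRM IFNγ arrays (0.28, 0.28 and 0.30) or siSUZ12 IFNγ replicate 2 or 3 (0.27 and 0.24). HLA-B went the other way with IFNγ, by -0.28 in siCtrl cells (adjusted p = 0.085, limma) and -0.19 in siSUZ12 cells (adjusted p = 0.365, limma). In siCtrl cells the HLA-B difference passed the test among probes detected in at least 3 arrays, with trend and robust settings, and at -0.37 when siCtrl + siBRM IFNγ replicate 1 was left out.

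**Figure D5:**
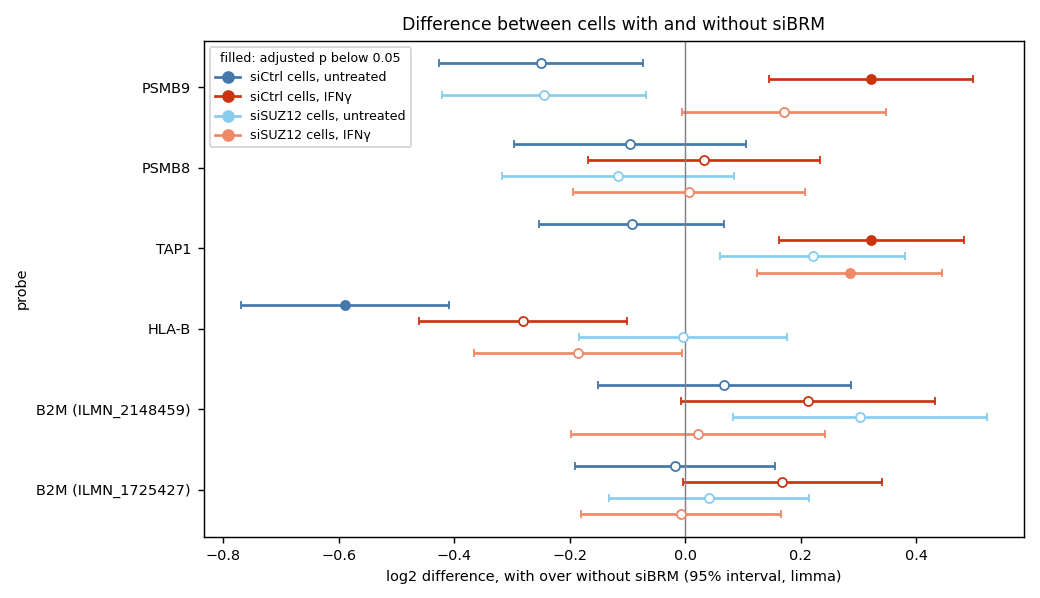
Log2 difference between cells with and without siBRM for each probe, in siCtrl or siSUZ12 cells, untreated or with IFNγ, with 95% intervals from limma; filled points have an adjusted p below 0.05. Filled are HLA-B in untreated siCtrl cells (-0.59), PSMB9 in siCtrl cells with IFNγ (0.32), and TAP1 with IFNγ in both backgrounds (0.32 and 0.29).

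The effect of siBRM on induction was called for 0 of 6 probes (limma) in both backgrounds. In siCtrl cells that contrast called 0 probes in the whole table, or 0%, with 1895 at an unadjusted p below 0.05, among them PSMB9, TAP1 and HLA-B. In siSUZ12 cells it called 0.0275% of all probes, and PSMB9 was the member with an unadjusted p below 0.05. PSMB9's induction was larger with siBRM by 0.57 ± 0.12 in siCtrl cells and 0.42 ± 0.12 in siSUZ12 cells (SE, 3 arrays in each of 4 groups; limma, adjusted p = 0.485 and 0.823). With background correction these differences were 0.89 and 0.59. The first passed the test with trend and robust settings (adjusted p = 0.0137, limma), and it rests on untreated siCtrl + siBRM arrays that did not detect PSMB9.

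Across the 8 groups, PSMB9 and TAP1 followed one order with IFNγ, from siCtrl through siCtrl + siBRM and siSUZ12 to siSUZ12 + siBRM. No neighbours in it overlapped for these genes. The means of B2M ILMN_2148459 had the same order, with overlapping neighbours. The last PSMB9 step, from siSUZ12 to siSUZ12 + siBRM, was not called (0.17, adjusted p = 0.412, limma). The called siBRM steps depended on single arrays, as given above. PSMB9 means in that order were 1699 ± 117, 2125 ± 183, 3338 ± 123 and 3764 ± 261 (SD, n = 3). Untreated, PSMB9 was lowest in siCtrl + siBRM cells at 129 ± 5.64 and highest in siSUZ12 cells at 243 ± 19.5, and the arrays of siSUZ12 + siBRM and siSUZ12 overlapped. For TAP1 the untreated arrays of siCtrl + siBRM, siCtrl and siSUZ12 overlapped with their neighbours, and siSUZ12 + siBRM stood above them at 1521 ± 22.3 (SD, n = 3).

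HLA-B had a different order. Untreated siSUZ12 arrays, with or without siBRM (means of 299 and 299.9), overlapped with those of siCtrl cells exposed to IFNγ (295 ± 25, SD, n = 3), and siCtrl + siBRM cells with IFNγ had a lower mean of 243 ± 26.7 with arrays that overlapped those of siCtrl cells with IFNγ. Both siSUZ12 groups with IFNγ were highest, at 489 ± 27.2 and 558 ± 55.6, and overlapped each other. In B2M the 4 untreated groups overlapped in order from one to the next and lay below all IFNγ groups. The IFNγ groups of ILMN_2148459 overlapped from one to the next, and in ILMN_1725427 siCtrl, siCtrl + siBRM and the siSUZ12 groups were apart, with siSUZ12 + siBRM and siSUZ12 overlapping.

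Over the 8 group means, which share arrays with every comparison above, each probe was correlated with the mean of the 6 standardized probes. The correlation was 0.986 for PSMB9, 0.971 for TAP1, 0.950 and 0.982 for the B2M probes, 0.775 for HLA-B and 0.484 for PSMB8. Each probe is part of that mean, and B2M enters it by both of its probes, so these values are partly built in. With the other members one by one, PSMB8 correlated at 0.15 to 0.38. Among 838 other probes detected in at least 3 arrays and spanning at least 1 log2 unit, those with the pattern most like that mean were ILMN_1798288 (r = 0.992) and ILMN_1745148 (r = 0.990). ILMN_1798288 rose from a mean of 225 to 462 with IFNγ in siCtrl cells and from 240.3 to 688 in siSUZ12 cells. ILMN_1745148 rose from 434 to 930.3 and from 461 to 1492. These are descriptions of 8 points.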

How the data were processed

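The authors hybridized cRNA from SW-13 cells to Human-HT-12 BeadChips and deposited, per the file headers, the signal intensity of each probe without normalization and its detection p-value; the labels name BeadStudio. All 24 intensity columns were used and 0 were left out, and each detection p-value column was checked against the intensities of its pair. Gene names of the 6 probes came from the HT-12 annotation; 0 probe IDs were in the gene tables used here.

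Arrays were scaled to a common mean intensity, the mean of the array means, then floored at 16 and taken to log2. In limma 3.58.1 (R 4.3.3), lmFit and eBayes were fitted to a mean per group over all 24 arrays (16 residual degrees of freedom) without a replicate term, with Benjamini-Hochberg adjustment over 47231 probes. Before use, the model was checked on simulated data with known changes, drawn as independent arrays with no effect shared by replicate number. The recovery of calls required there covered IFNγ in siCtrl cells and not the differences in induction. Python 3.11.15 served for the promoter search and, with matplotlib 3.10.9, for plots.

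The rule was to name all 6 probes in each comparison, plus the 2 probes most alike over the group means among those detected at p below 0.01 in at least 3 arrays. The members and lists were chosen with earlier results of these data known. Alternatives were quantile normalization, neqc (offset 16), a floor of 64, detected probes only, the compared groups alone, trend and robust settings, a replicate block, leaving out replicates, and calls at 2-fold or 1.5-fold.

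By the rule used, replicate numbers were not taken to pair the arrays.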

Additional observations from a re-analysis of the deposited data

Results flagged for a closer look

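TAP1 was marked because its induction by IFNγ differed between siSUZ12 and siCtrl cells by a test of the difference itself, at 0.50 on the log2 scale (limma, adjusted p = 0.0412). All 3 siSUZ12 arrays with IFNγ were above all 3 siCtrl arrays with IFNγ, and the untreated arrays overlapped. The call was lost in 15 of 22 alternatives.

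HLA-B was marked because the effect of siSUZ12 in untreated cells was larger when siBRM was present, by 0.59 on the log2 scale (limma, adjusted p = 0.00857). The 3 siCtrl + siBRM arrays were the lowest of the 12 untreated arrays. This contrast was chosen after the data were seen.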

How the results depend on the processing

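Of 82 results for single probes, recomputed under 34 settings to 1444 values, 1333 values kept their direction and side of the threshold, 51 lost the call, 22 gained it and 38 changed sign, and 54 results kept both throughout. The sign changed only where the main value was not called. With neqc these were PSMB9 (-0.29) and HLA-B (-0.27) for the siSUZ12 difference in induction with siBRM. Leaving out replicates took that difference to -0.062 to 0.12 for HLA-B and -0.18 to 0.056 for B2M ILMN_2148459, the untreated siSUZ12 difference of B2M ILMN_2148459 to -0.038 to 0.085, and the siBRM difference of HLA-B in untreated siSUZ12 cells to -0.027 to 0.035. It took the siBRM differences of B2M ILMN_2148459 to -0.075 to 0.18 in untreated siCtrl cells and -0.062 to 0.093 in siSUZ12 cells with IFNγ, those of ILMN_1725427 to -0.066 to 0.021 in untreated siCtrl, -0.034 to 0.11 in untreated siSUZ12 and -0.061 to 0.079 in siSUZ12 cells with IFNγ, the siBRM difference in induction of ILMN_1725427 in siSUZ12 cells to -0.15 to 0.059, and the siSUZ12 by siBRM difference of HLA-B with IFNγ to -0.022 to 0.18. The cause of these changes was not tested.

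The larger moves in the numbers of the 6 probes called are listed after the smaller ones. Leaving out replicates gave 4 to 5 for IFNγ in siCtrl cells and for siSUZ12 with IFNγ. It gave 3 to 4 for siSUZ12 with siBRM, both untreated and with IFNγ. The last of these also reached 4 in other alternatives. In siSUZ12 cells IFNγ called 4 at 2-fold. At 2-fold, IFNγ called 2 in siCtrl, 2 in siCtrl + siBRM and 3 in siSUZ12 + siBRM cells. At 2-fold siSUZ12 called 0 untreated and 0 with IFNγ, and 1 in each with siBRM, and at 1.5-fold 1 untreated and 2 with IFNγ. For siBRM in untreated siCtrl cells, neqc, detected probes, and trend and robust settings each gave 2, and 2-fold gave 0. In untreated siSUZ12 cells siBRM called 1 with neqc, 2 among detected probes, 1 with trend and robust settings and 1, B2M ILMN_2148459, with the replicate block, and 0 to 1 on leaving out replicates. With IFNγ in siCtrl cells it called 3 among detected probes and with trend and robust settings, 1 with neqc and 0 with the compared groups alone, at 2-fold and at 1.5-fold, and 0 to 2 on leaving out replicates; in siSUZ12 cells these last 4 gave 0, 0, 0 and 0 to 1. The siSUZ12 difference in induction was called for 2 probes, TAP1 and HLA-B, with quantile normalization, detected probes, and trend and robust settings, for 0 with neqc, the compared groups alone, 2-fold and 1.5-fold, and for 0 to 1 on leaving out replicates. The siBRM difference in induction in siCtrl cells was called for 1, PSMB9, with trend and robust settings.

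By the rule used, replicate numbers were not taken to pair the arrays. Correlations of deviations between same-numbered arrays were -0.098 to 0.36 with a median of 0.10, against a median of -0.046 between arrays of other numbers, in 0 of 12 comparisons were all pairs over 0.1, and 17 of 24 arrays correlated best with their own number, a hint from the data and not the design. Beyond the value given above, the replicate block changed no count of calls. HLA-B's siSUZ12 difference between cells with and without siBRM, untreated, lost its call without replicate number 1, 2 or 3 (0.53 to 0.67). With 1 array left out of a group, the others share one estimate of the spread. Detection limits PSMB8 and untreated PSMB9.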

Other observations

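The ratio of the B2M probe ILMN_1725427 to ILMN_2148459 ranged from 1.29 to 2.25 over the 24 arrays. It was 1.87 to 2.25 in the 8 arrays numbered 1, 1.49 to 1.97 in those numbered 2, and 1.29 to 1.88 in those numbered 3. The lowest ratio, 1.29, was in siSUZ12 + siBRM untreated replicate 3, and the highest, 2.25, in siCtrl + siBRM untreated replicate 1. Both probes rose with IFNγ in all 4 siRNA combinations.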
